A study of Mus musculus with 12 samples.

Results

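The genes described here are 33 genes that mark T cells and natural killer (NK) cells, out of 25239 gene symbols with read counts. They were taken by name from the count table as a set of the T cell receptor complex with its coreceptors, T cell surface proteins, proximal signalling proteins, cytotoxic granule proteins, NK receptors and transcription factors. All 33 were listed. The study asked how periodic heat waves alter gene expression along the liver and brain of elderly animals. RNA was taken from pieces cut from frozen brain or liver, with the brain region not given in the sources used here, and polyadenylated RNA was sequenced from 12 libraries. The labels do not say whether a brain and a liver library with the same number came from the same mouse, so the 12 were treated as independent. The control groups were wild type male C57BL/6J mice of 24 months that were not exposed to heat, with 3 brain libraries and 3 liver libraries. The heat stress groups were wild type male C57BL/6J mice of the same age, held at 40 °C and 60% relative humidity for 3 hours a day over 15 days, again with 3 libraries per tissue. No group carried a transgene by its labels, and the tissue pieces were not sorted, so the RNA came from all cells of a piece.

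T cells recognise peptides on other cells through a T cell receptor, which signals through the CD3 and zeta chains, the kinases LCK and ZAP70 and the adaptor LAT. The coreceptor CD4 marks helper T cells, and CD8 marks cytotoxic T cells. NK cells lack that receptor, carry activating and inhibitory receptors of the KLR and NCR families, and share with cytotoxic T cells the granzymes and perforin that kill target cells. The liver normally holds many resident T cells and NK cells in its sinusoids, whereas the healthy brain parenchyma holds few.

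Depth was similar between libraries, with 10466198 to 15609040 counts per library. A count of 0 therefore allowed a share of up to 1.92e-05% to 2.87e-05% of a library, a limit that covers counting error only. Levels below are TMM-normalized CPM, the counts scaled to a common library size by edgeR. The tissues matched their labels, because 6 neuron genes summed to 5584 to 7909 CPM in the brain libraries and to 13.2 to 31.4 CPM in the liver libraries. In liver, 2 libraries stood apart, with 6 skeletal muscle genes at 300.2 CPM in control 1 and at 1762 CPM in heat stress 2, against 0.839 to 5.91 CPM in the other 4. Results in liver were therefore also computed without these libraries. The columns of control 2, heat stress 1 and heat stress 3 of the liver also carry a suffix (2nd) in their names, which is not explained in the sources used here. In a piece of whole tissue, fewer cells of a type and less RNA per cell cannot be told apart.

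The members lie in several gene clusters (mm10, GENCODE M21). Cd3g, Cd3d and Cd3e follow each other on chromosome 9 from 44969572 to 45009627. Cd8b1 at chr6:71322788-71337494 and Cd8a at chr6:71373427-71379173 are neighbours, as are Cd5 at chr19:10717116-10739002 and Cd6 at chr19:10789341-10830058. Gzma at chr13:113093825-113100981 and Gzmk at chr13:113171608-113225908 share a granzyme cluster, and Klrb1c, Klrd1 and Klrk1 lie on chromosome 6 between 128778485 and 129623864. Members of the KLR and granzyme families resemble their relatives in sequence, so reads shared between copies make their counts less certain.

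The promoters of 4 members whose heat stress and control livers did not overlap are shown because these genes represent the receptor, the coreceptor, the cell surface and the granule. The RefSeq sequences (GRCm38.p6) cover the 250 bases before the annotated start, and 25 of the 33 members were matched. Capitals mark matches to 3 strings searched on both strands. The RUNX core is TGTGGT, which reads as ACCACA on the other strand. The ETS core is AGGAAG, which reads as CTTCCT on the other strand. The T-box core is GGTGTG, which reads as CACACC on the other strand, and no match overlapped a match to another string in the printed windows. The window of Cd3e lies at chr9:45009612-45009861 on the minus strand and that of Cd8a at chr6:71373177-71373426 on the plus strand. The window of Spn lies at chr7:127137824-127138073 and that of Gzma at chr13:113100982-113101231, both on the minus strand.
Cd3e: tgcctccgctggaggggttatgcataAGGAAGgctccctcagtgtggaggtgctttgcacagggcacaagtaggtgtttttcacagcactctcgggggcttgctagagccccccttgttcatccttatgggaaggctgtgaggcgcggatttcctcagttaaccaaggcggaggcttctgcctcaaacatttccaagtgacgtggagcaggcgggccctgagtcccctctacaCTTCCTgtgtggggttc
Cd8a: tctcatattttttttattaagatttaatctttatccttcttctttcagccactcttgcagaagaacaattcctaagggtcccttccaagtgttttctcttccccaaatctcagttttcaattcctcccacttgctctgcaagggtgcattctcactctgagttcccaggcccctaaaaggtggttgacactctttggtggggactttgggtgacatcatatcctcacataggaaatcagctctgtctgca
Spn: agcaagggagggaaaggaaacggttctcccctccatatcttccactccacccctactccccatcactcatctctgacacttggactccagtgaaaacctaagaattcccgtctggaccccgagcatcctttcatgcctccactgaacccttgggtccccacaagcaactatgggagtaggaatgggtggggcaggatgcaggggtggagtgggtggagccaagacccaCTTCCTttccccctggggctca
Gzma: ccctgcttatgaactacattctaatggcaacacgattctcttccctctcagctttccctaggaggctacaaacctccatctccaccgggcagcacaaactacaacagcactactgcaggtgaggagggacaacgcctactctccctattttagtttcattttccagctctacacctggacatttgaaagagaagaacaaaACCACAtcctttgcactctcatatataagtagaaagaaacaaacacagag

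The Cd3e window held 2 matches to the ETS core and the Spn window 1, while the Gzma window held 1 match to the RUNX core. None of the 3 letter strings was in the Cd8a window. The RUNX core was found in 10 of the 25 matched members (40.0%) and in 15.9% of 27025 genes with windows of the same length. The ETS core was in 14 members (56.0%) against 32.3% of all genes, and the T-box core in 7 members (28.0%) against 18.3%. A gene was counted when the window of any of its annotated starts held the string, and the 25 members had 31 starts. A match is a run of letters and not a measured binding site.

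In liver, the T and NK cell genes were mostly higher after heat stress, but no member passed the adjusted threshold. Of 30 members with at least 10 counts over the 6 liver libraries, 29 had a higher mean CPM in heat stress and 1, the NK receptor gene Klrb1c, had a lower mean. In 11 members, every heat stress library lay above every control library (Cd3e, Cd247, Cd8a, Cd5, Cd7, Cd27, Spn, Lck, Lat, Txk and Gzma), and in none did every heat stress library lie below. Among all 14895 genes with that many counts, groups did not overlap in 5.4% for higher and in 5.49% for lower levels. The median ratio of heat stress to control was 1.96 for the 30 members and 1.01 for all genes.

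**Figure D1:**
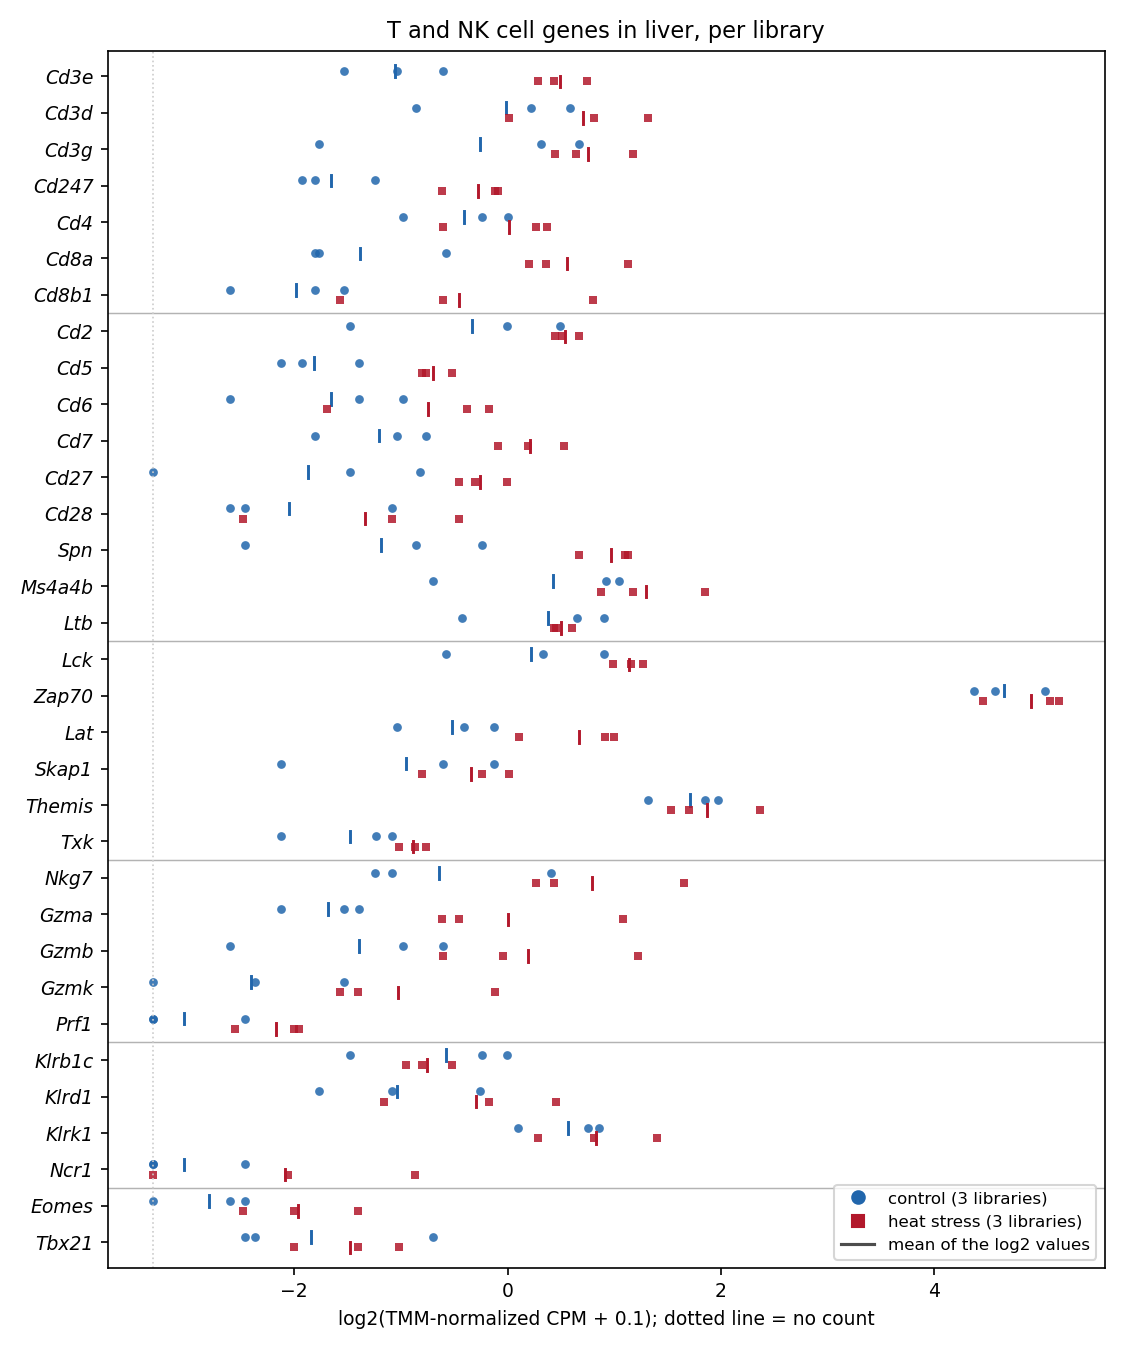
Level of each of the 33 members in the 6 liver libraries as log2(TMM-normalized CPM + 0.1), with control libraries as circles, heat stress libraries as squares and the mean of the log2 values of each group as a short line. For the 11 genes named in the text, all 3 squares lie to the right of all 3 circles, while Zap70 lies far to the right of the other members in both groups.

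Only 16 members had enough counts for edgeR's quasi-likelihood test in liver. None (0 of 16) was called at a Benjamini-Hochberg adjusted p under 0.05, and 0% of the 12296 genes tested were called. DESeq2 called 0 members and 0.537% of all genes. At an unadjusted p under 0.05, 6 members were higher (Cd3e, Cd8a, Cd7, Spn, Lat and Nkg7) and 0 were lower, against 2.97% of all genes higher and 2.87% lower. The fitted log2 fold changes of the 16 ranged from 0.05 for Ltb to 2.16 for Cd8a, with a median of 0.84 against 0.01 over all genes tested. A gene passes the filter when it reaches the minimum count in 3 libraries, so a member near it can pass through the group in which it is higher, and the counts over tested members are a description. With a minimum count of 20, only 6 members could be tested and 0 had an unadjusted p under 0.05.

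The T cell receptor chains and the CD8 coreceptor had higher mean levels in heat-stressed livers, and Cd3e, Cd247 and Cd8a did not overlap between the groups. Cd3e, the epsilon chain of CD3, had 6, 3 and 6 counts in the control livers and 15, 18 and 20 in the heat stress livers, or 0.397 ± 0.157 against 1.32 ± 0.236 CPM (SD, n = 3). Every heat stress library was above every control library, with a log2 fold change of 1.72 ± 0.44 (SE) and an adjusted p of 0.465 in edgeR. Cd3d, the delta chain, had 7, 13 and 15 counts in control against 32, 13 and 21 after heat stress. Cd3g, the gamma chain, had 3, 14 and 16 counts in control against 29, 21 and 16 after heat stress. For both chains the groups overlapped, with at least 1 heat stress library among the controls, and the log2 fold changes were 0.80 and 0.84.

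Cd247, the zeta chain that carries the receptor's signal, had 5, 2 and 2 counts in the control livers and 11, 12 and 7 in the heat stress livers. The groups did not overlap, and the gene was too low for the fit. Its exons overlap those of Pou2f1 on the opposite strand by 3007 bases, and Pou2f1 had 128, 107 and 83 counts in control against 104, 119 and 86 after heat stress, with overlapping groups.

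Cd8a, the alpha chain of CD8, had 3, 7 and 2 counts in the control livers and 28, 15 and 15 in the heat stress livers, or 0.317 ± 0.220 against 1.44 ± 0.565 CPM (SD, n = 3). All heat stress libraries lay above all control libraries, and heat stress 1 was highest. The log2 fold change was 2.16 ± 0.55 (SE), with an adjusted p of 0.449 in edgeR, and it lay between 1.78 and 2.86 over the alternative settings. Cd8b1, the beta chain, had 1, 3 and 2 counts in control against 22, 8 and 3 after heat stress, where only heat stress 1 stood far above the rest. Cd4, the coreceptor of helper T cells, had 14, 5 and 8 counts in control against 16, 8 and 14 after heat stress. The Cd4 groups overlapped, with a log2 fold change of 0.44 ± 0.48 (SE). Summed over the 7 receptor and coreceptor genes, the control livers had 2.52, 3.83 and 4.75 CPM and the heat stress livers 11.4, 6.62 and 7.57 CPM, so that the groups did not overlap.

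Among the surface proteins, Spn, Cd7, Cd27 and Cd5 separated the liver groups. Spn, the sialomucin CD43 of T cells and other leukocytes, had 7, 1 and 8 counts in control against 20, 30 and 26 after heat stress, or 0.426 ± 0.333 against 1.88 ± 0.336 CPM (SD, n = 3). Its log2 fold change was 2.14 ± 0.54 (SE) with an adjusted p of 0.449 in edgeR, and over the alternatives the adjusted p ranged from 0.0988 with DESeq2 to above 0.99 without heat stress 3. All heat stress livers were well above all control livers. Cd7, a costimulatory protein of T and NK cells, had 6, 6 and 2 counts in control against 14, 12 and 17 after heat stress, with a log2 fold change of 1.54 ± 0.48 (SE) and an adjusted p of 0.622 in edgeR.

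Cd27, a costimulatory receptor of the TNF receptor family, had 4, 0 and 5 counts in the control livers and 12, 9 and 9 in the heat stress livers. Cd5, an inhibitory regulator of T cell receptor signalling, had 2, 2 and 3 counts in control against 8, 7 and 6 after heat stress. In both genes the heat stress libraries lay close together and above the controls, at counts too low for the fit. The related Cd6 had 1, 5 and 3 counts in control against 9, 3 and 10 after heat stress, with overlapping groups. Cd2, an adhesion receptor, Cd28, the costimulatory receptor for B7 ligands, and Ms4a4b, a membrane protein of T cells, also overlapped. Their log2 fold changes were 0.78 for Cd2 and 0.83 for Ms4a4b, whereas Cd28 had at most 9 counts. Ltb, which encodes lymphotoxin beta, had 10, 18 and 19 counts in control against 17, 18 and 18 after heat stress, and its log2 fold change was 0.05 ± 0.42 (SE). Summed over the 9 surface genes, the control livers had 2.78, 5.38 and 7.36 CPM and the heat stress livers 11.3, 9.62 and 9.86 CPM.

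In the signalling genes, Lat, Lck and Txk did not overlap, and the most abundant genes did. Lat, the membrane adaptor that ZAP70 phosphorylates, had 6, 10 and 7 counts in control against 24, 14 and 24 after heat stress, or 0.618 ± 0.216 against 1.55 ± 0.502 CPM (SD, n = 3). Its log2 fold change was 1.33 ± 0.45 (SE) with an adjusted p of 0.718 in edgeR. The unadjusted edgeR p was 0.0142, and it was 0.0571 without control 1, 0.0562 without heat stress 1 and 0.0667 without heat stress 3. Lck, the kinase that starts receptor signalling, had 18, 7 and 19 counts in control against 31, 27 and 27 after heat stress, with a log2 fold change of 0.86 ± 0.41 (SE). Txk, a kinase of the TEC family, had 2, 4 and 4 counts in control against 6, 7 and 5 after heat stress, a narrow separation of low counts.

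Zap70, the kinase recruited to the phosphorylated receptor chains, had 319, 401 and 253 counts in control against 483, 313 and 428 after heat stress. Themis, a regulator of thymocyte selection, had 37, 43 and 41 counts in control against 68, 40 and 40 after heat stress. Neither gene separated the groups, and the log2 fold changes were 0.25 ± 0.24 (SE) for Zap70 and 0.19 ± 0.32 (SE) for Themis. Skap1, an adaptor that couples the receptor to integrins, had 2, 10 and 6 counts in control against 10, 13 and 6 after heat stress. Zap70 made up most of the signalling sum. The 6 genes together overlapped, with 24.8 to 38.7 CPM in control and 28.9 to 46.3 CPM in heat stress.

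The cytotoxic granule genes had higher mean levels in heat stress, most of all in 1 library. Nkg7, a granule membrane protein, had 5, 15 and 4 counts in the control livers and 41, 18 and 14 in the heat stress livers. Heat stress 3 and control 2 lay close together once depth was taken into account, so the groups overlapped. The log2 fold change was 1.50 ± 0.60 (SE) with an adjusted p of 0.822 in edgeR. With 1 library left out in turn, the log2 fold change lay between 0.87 and 2.35. The unadjusted edgeR p was 0.0323, and it was 0.0856 without control 1, 0.116 without control 3 and 0.201 without heat stress 1. Gzma, which encodes granzyme A, had 2, 3 and 3 counts in control against 27, 9 and 7 after heat stress, and its groups did not overlap.

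Gzmb, which encodes granzyme B, had 1, 5 and 6 counts in control against 30, 8 and 11 after heat stress, and Gzmk, which encodes granzyme K, had 0, 3 and 1 in control against 11, 4 and 3 after heat stress. In both granzymes heat stress 1 was far above the other libraries and the remaining values overlapped with the controls. Prf1, the gene of perforin, had at most 2 counts in any liver library. The 5 granule genes summed to 0.516, 2.20 and 1.30 CPM in control against 8.26, 2.79 and 2.92 CPM after heat stress, without overlap, and heat stress 1 held most of the excess.

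The NK receptors did not separate the liver groups. Klrk1, the gene of the activating receptor NKG2D, had 15, 21 and 17 counts in control against 34, 16 and 21 after heat stress, with a log2 fold change of 0.33 ± 0.41 (SE). Klrd1, the gene of CD94, had 3, 9 and 4 counts in control against 17, 5 and 10 after heat stress. Klrb1c, the gene of the NK1.1 antigen in this strain, had 4, 11 and 8 counts in control against 8, 6 and 6 after heat stress, a mean of 0.634 ± 0.334 against 0.496 ± 0.0909 CPM (SD, n = 3). All 3 genes overlapped between the groups. Ncr1, the gene of the activating receptor NKp46, had 0, 1 and 0 counts in control against 6, 2 and 0 after heat stress. The transcription factors of effector T and NK cells were barely detected, with at most 4 counts for Eomes and at most 8 for Tbx21 in any liver library. The sums of the 4 NK receptor genes overlapped, from 1.42 to 3.42 CPM in control and from 2.02 to 4.84 CPM in heat stress.

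**Figure D2:**
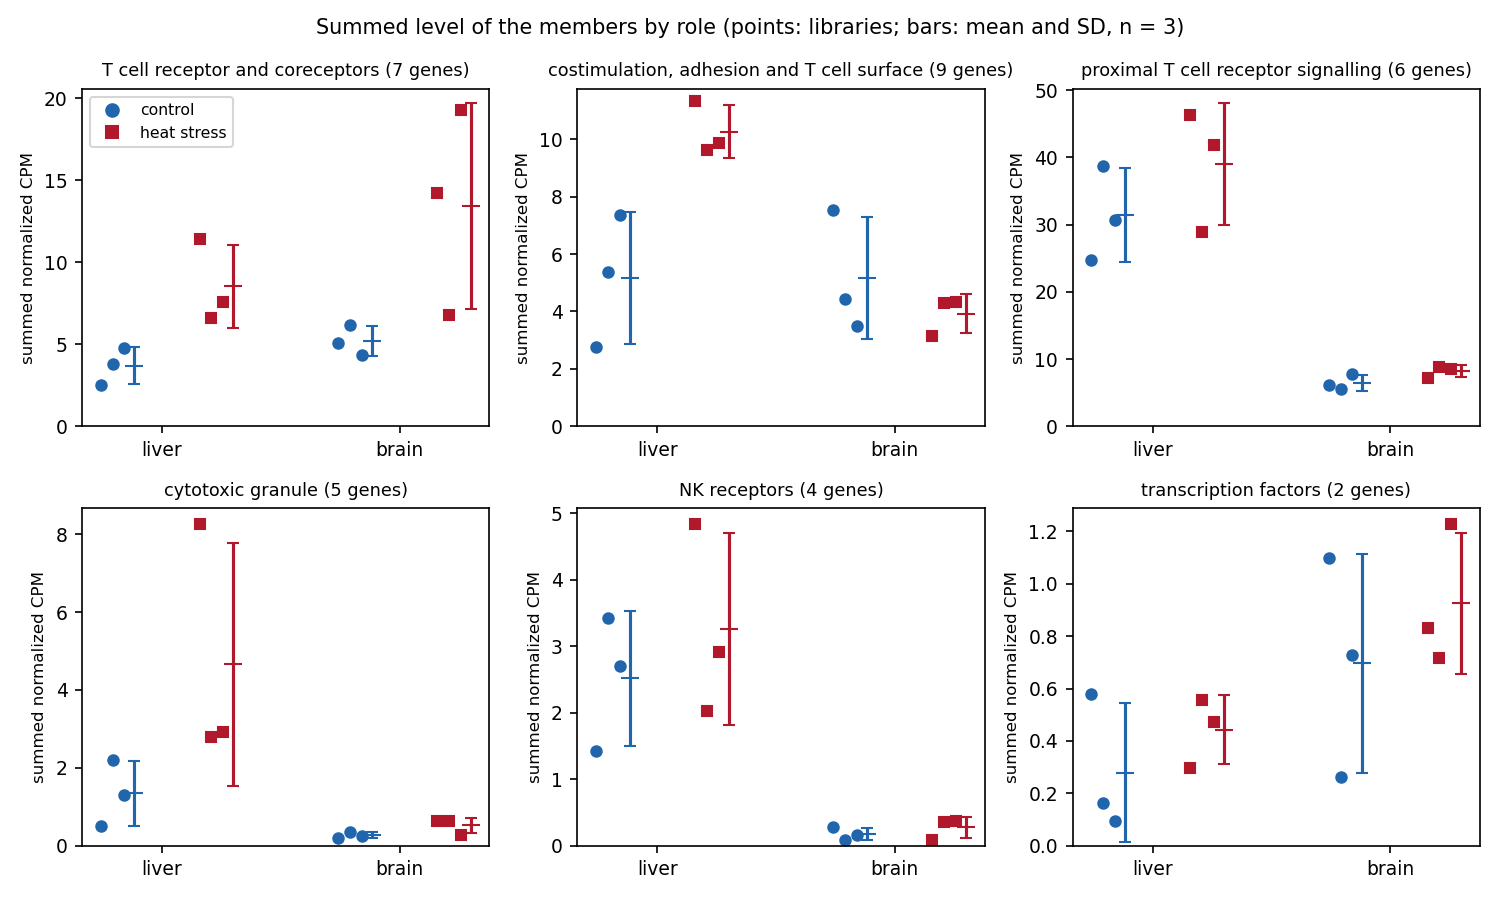
Summed TMM-normalized CPM of the members of each role in liver and brain, with 1 point per library (circles control, squares heat stress) and bars for the mean and SD of 3 libraries, on axes that start at 0. In liver the receptor, surface and granule sums do not overlap between the groups, and in brain the receptor and coreceptor sum, most of which is Cd4, does not overlap either. The granule sum in brain rests on 3 to 7 counts per library.

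A pair of liver libraries held most of the extremes. Of the 30 members, control 1 had the lowest level of all 6 livers in 21, and heat stress 1 had the highest level in 18. Over all 14895 genes, control 1 was lowest in 20.4% and heat stress 1 was highest in 13.6%. Control 1 was 1 of the libraries with muscle transcripts, and it also held more neuron transcripts than the other livers. Snap25 had 132 counts in control 1 against at most 14 in the others, Slc17a7 47 against at most 4 and Gad1 21 against at most 2. The part of these in the values of the members was not tested. Without control 1, 12 members did not overlap in the higher direction and 2 in the lower direction, against 15.2% and 15.1% of all genes. Without heat stress 2 the number higher was 17, against 9.95% of all genes. Without both libraries with muscle transcripts, 17 of 29 members were higher and 2 lower without overlap, where 20.3% of all genes were higher and 20.8% lower, and the log2 fold change of Cd3e was 1.73 and that of Cd8a 2.04. Without heat stress 1, 11 members did not overlap in the higher direction, against 9.99% of all genes.

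The liver columns with the suffix in their names stood apart for a few members. Zap70 had 32.7, 36.0 and 33.8 CPM in control 2, heat stress 1 and heat stress 3, the libraries with the suffix, and 20.6, 23.6 and 21.8 CPM in control 1, control 3 and heat stress 2, those without it. Of the 30 members, 4 were higher in all 3 libraries with the suffix than in all 3 without it (Cd6, Zap70, Klrd1 and Klrk1) and 0 were lower, against 7.73% and 6.47% of all genes. Within the libraries with the suffix, both heat stress livers were above the control liver in 20 members and below it in 3, against 34.6% and 34.4% of all genes. Within those without it, the heat stress liver was above both control livers in 18 members and below both in 1, against 29.3% and 25.1%. In an edgeR fit with the suffix as a term, chosen after seeing the data, 0 of the 16 members and 0.0488% of all genes were called. At an unadjusted p under 0.05, 7 members were higher and 0 were lower in that fit, against 4.3% and 4.2% of all genes. The log2 fold change was then 1.80 for Cd3e, 1.90 for Cd8a, 2.45 for Spn and 0.04 for Zap70, and -0.010 for Ltb.

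Zap70 and Themis held most of the members' counts in liver. The 33 members summed to 32.6, 53.7 and 47.0 CPM in control against 82.4, 50.5 and 65.5 CPM after heat stress, with overlapping groups and a ratio of means of 1.49. Without Zap70 the ratio was 1.89. Without Zap70, Themis and Cd4, of which none separated the groups, the remaining 30 summed to 8.71, 17.1 and 18.8 CPM in control against 40.2, 25.3 and 27.5 CPM after heat stress. The latter groups did not overlap, at a ratio of means of 2.08, and the 3 genes were left out after their values were seen.

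Markers of other blood cells were also higher on average in the heat-stressed livers, by smaller factors. The 8 genes of leukocytes in general, such as Ptprc and Coro1a, summed to 126.1, 135.9 and 142.4 CPM in control against 174.5, 144.5 and 155.8 CPM after heat stress, without overlap. Ratios of the single genes ranged from 1.04 for Lcp1, the most abundant at 82.9 CPM in control, to 1.72 for Coro1a and Rac2. All 8 had a fitted log2 fold change above 0, and 3 of them had an unadjusted edgeR p under 0.05, beside 51.8% of all genes above 0 and 2.97% higher at that p. The 16 macrophage genes summed to 215.3, 282.7 and 333.4 CPM in control against 447.6, 296.8 and 275.7 CPM after heat stress, with overlapping groups. All 15 that were tested were above 0, and 1 had an unadjusted p under 0.05, against the same shares of all genes. The 8 B cell genes overlapped too, from 6.26 to 12.2 CPM in control and from 9.90 to 15.6 CPM in heat stress, and the 6 neutrophil genes from 1.23 to 7.91 and from 3.07 to 6.03 CPM. Of the 5 red blood cell genes, 4 globin genes were listed at 0 in all 12 libraries, and Alas2 alone ranged from 103.9 to 125.7 CPM in control and from 93.9 to 169.8 CPM in heat stress. These lists were written with earlier results of these data known, so their counts are a description. The part of any of these in the values of the members was not tested.

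Of a list of 44 other T and NK cell genes, 40 were listed in the count table, and the constant regions of the T cell receptor were not analysed here. The 40 summed to 31.6, 35.5 and 38.1 CPM in the control livers against 48.8, 42.7 and 40.2 CPM after heat stress, without overlap. The ratio of means was 1.25. The list was written with earlier results of these data known, so its counts are a description. In liver, 12 of them were tested, 1 had an unadjusted edgeR p under 0.05 in the higher direction and 1 in the lower direction, against 2.97% and 2.87% of all genes. Ccl5, a chemokine made by activated T and NK cells, had 8, 14 and 18 counts in control against 88, 63 and 62 after heat stress, with a log2 fold change of 2.28 ± 0.40 (SE) and an adjusted p of 0.141 in edgeR. Every heat stress liver lay above every control liver. S1pr5, a sphingosine phosphate receptor found on NK cells and also outside the immune system, had 183, 82 and 56 counts in control against 61, 74 and 65 after heat stress. Its log2 fold change was -0.69, and every heat stress liver lay below every control liver by a narrow margin, with control 1 highest. Among the 30 with at least 10 counts, 8 were higher and 1 was lower without overlap, beside 5.4% and 5.49% of all genes.

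In brain, most T and NK cell genes were near the detection limit. The members had 194 to 361 counts per brain library in all, and 14 of the 33 never exceeded 3 counts in a brain library. Only 21 had at least 10 counts over the 6 libraries and only 5 were tested (Cd4, Cd6, Lck, Zap70 and Skap1). By edgeR, 0 of the 5 were called at an adjusted p under 0.05, and 0% of the 14806 genes tested in brain were called. The smallest adjusted p of a member was 0.170, which was also the smallest of all genes. At an unadjusted p under 0.05, Cd4 and Lck were higher and Cd6 was lower, where 10% of all genes were higher and 10% lower. Of the 21 members, 1 was higher without overlap (Lck) and 1 lower (Cd6), against 12.1% and 10.9% of 17147 genes. With 1 library left out in turn, the members higher without overlap ranged from 1 of 16 without control 3, against 16.2% of all genes, to 4 of 14 without heat stress 1, against 16.3%. A higher mean in heat stress was found in 15 of the 21, against 50.4% of all genes, with a median ratio of 1.34 against 1.00.

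**Figure D3:**
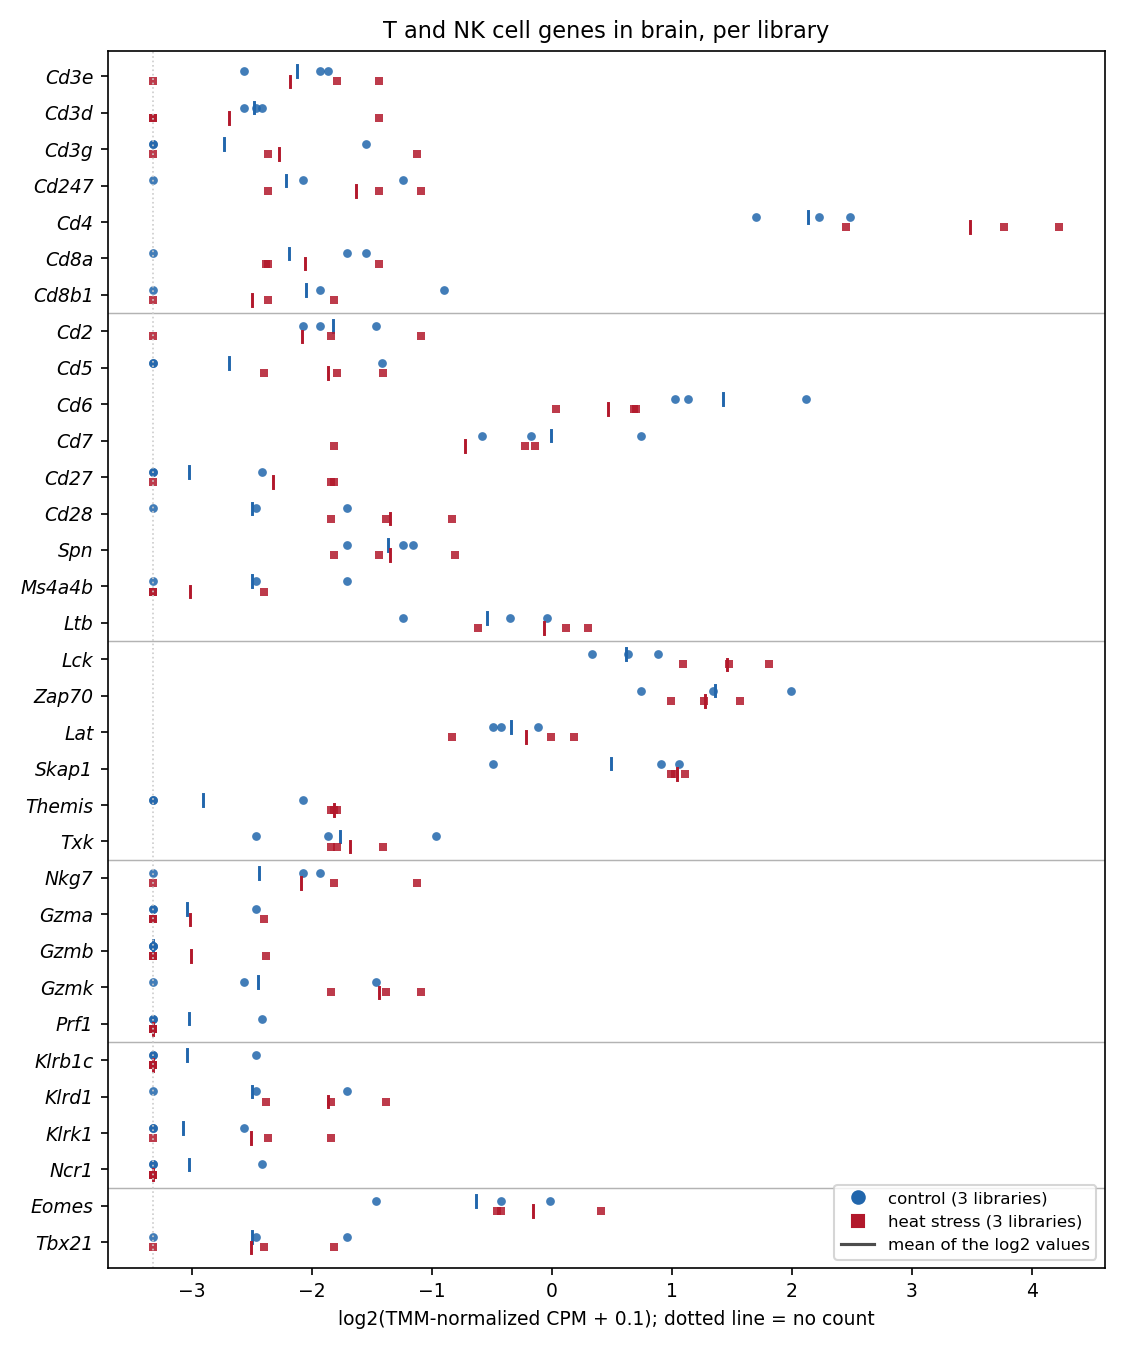
Level of each of the 33 members in the 6 brain libraries as log2(TMM-normalized CPM + 0.1), with control libraries as circles, heat stress libraries as squares and the mean of the log2 values of each group as a short line. Most members lie at or near the dotted line that marks no count, while Cd4, Cd6, Lck, Zap70 and Skap1 lie to the right.

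Of the 5 members tested in brain, Cd4 had the largest fitted difference. It had 67, 63 and 39 counts in the control brains and 147, 60 and 198 in the heat stress brains, or 4.59, 5.50 and 3.16 CPM against 13.6, 5.37 and 18.7 CPM. Heat stress 1 and 3 were high, whereas heat stress 2 lay within the control range. The log2 fold change was 1.50 ± 0.41 (SE), with an adjusted p of 0.170 in edgeR. DESeq2, a tool that the study's methods name beside the older DESeq, gave an adjusted p of 0.0165 for Cd4. It gave no adjusted p for the other 4 members tested in brain. DESeq2 called 549 of the 14806 genes there (3.71%), or 4.71% of the 11646 genes with an adjusted p, where edgeR called 0.

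The CD3 chains and Cd8a had 0 to 4 counts per brain library, too few to show whether they followed the order of the Cd4 levels. Cd3e had 1, 2 and 2 counts in control against 0, 3 and 2 after heat stress. Cd3d had 1, 1 and 1 in control against 0, 3 and 0 after heat stress, and Cd3g had 0, 0 and 3 in control against 0, 4 and 1 after heat stress. In heat stress 1, with the second highest Cd4 level, all 3 CD3 chains were at 0 counts. Cd8a had 3, 0 and 3 counts in control against 1, 3 and 1 after heat stress, and Cd247 had at most 4 counts in any brain. The 32 members without Cd4 summed to 15.7, 11.4 and 13.7 CPM in control against 12.6, 16.3 and 15.4 CPM after heat stress, with overlapping groups and a ratio of means of 1.08.

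A marker list of another cell type moved with Cd4 across the brain libraries. The 12 genes of striatal medium spiny neurons, such as Ppp1r1b, Drd1 and Adora2a, summed to 549.7, 970.7 and 556.1 CPM in control against 1302, 930.8 and 2045 CPM after heat stress. As for Cd4, heat stress 3 was highest, heat stress 1 was next and heat stress 2 lay within the control range. Of the 12, 10 had an unadjusted edgeR p under 0.05 in the higher direction and 5 did not overlap, beside 10% and 12.1% of all genes. The list was written with earlier results of these data known, so these shares are a description and not a test. The 16 macrophage and microglia genes ranged from 491.7 to 648.6 CPM in control and from 545.0 to 619.0 CPM in heat stress and did not follow that order. The part of these cells in the Cd4 level was not tested.

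**Figure D4:**
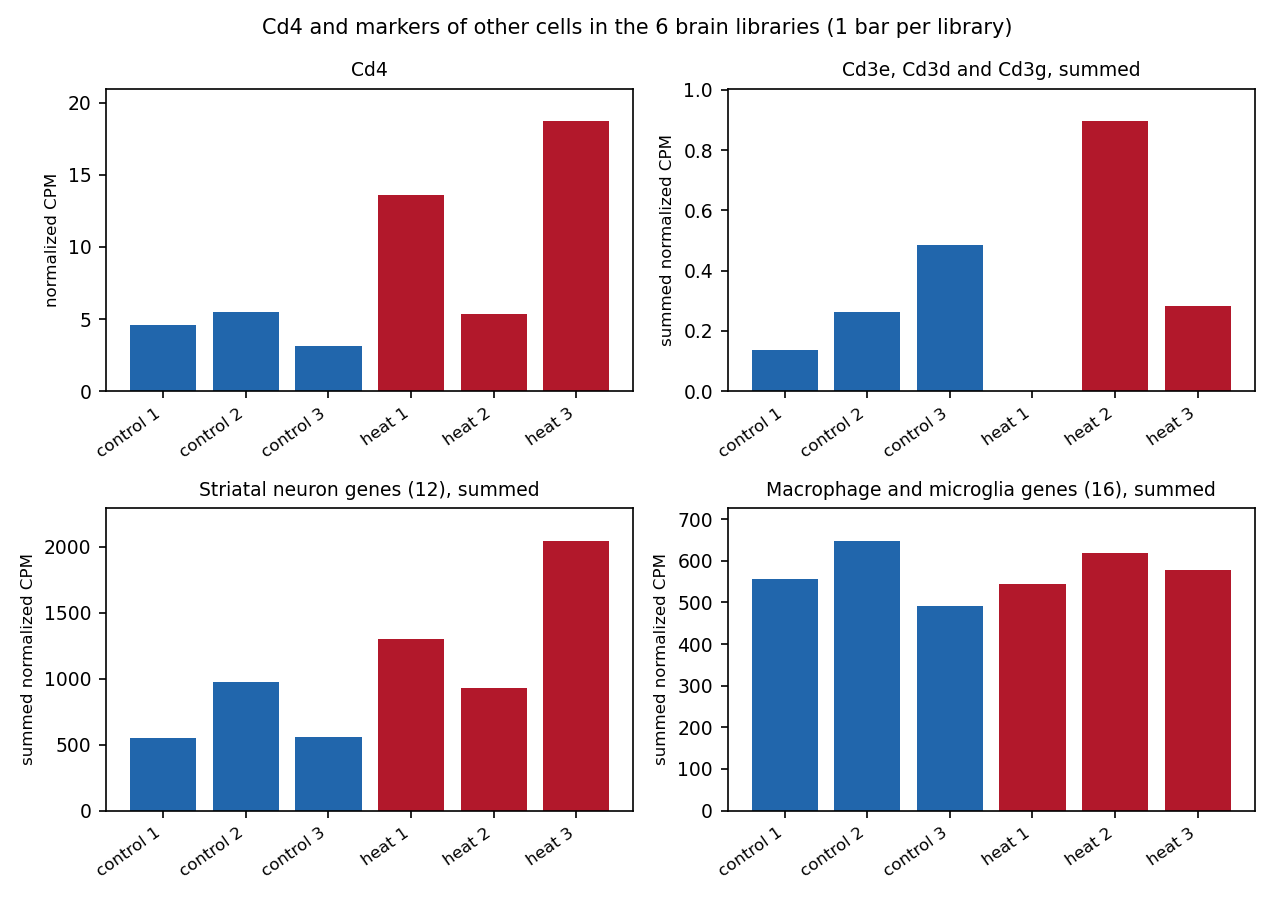
TMM-normalized CPM in each of the 6 brain libraries for Cd4, for the summed CD3 chains, for 12 striatal neuron genes and for 16 macrophage and microglia genes, 1 bar per library on axes that start at 0. Cd4 and the striatal genes are both highest in heat stress 3 and next in heat stress 1. Each CD3 chain had 0 to 4 counts per library, with none in heat stress 1, too few to show an order.

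Lck was higher and Cd6 lower in heat-stressed brain without overlap, but neither passed the adjusted threshold. Lck had 17, 20 and 18 counts in control against 22, 30 and 36 after heat stress, or 1.46 ± 0.290 against 2.71 ± 0.685 CPM (SD, n = 3). All heat stress brains were above all control brains, with a log2 fold change of 0.90 ± 0.32 (SE) and an adjusted p of 0.186 in edgeR. The unadjusted edgeR p of 0.0186 became 0.0669 without control 1 and 0.0852 without heat stress 3. Cd6 had 62, 24 and 24 counts in control against 10, 17 and 16 after heat stress, with a log2 fold change of -1.08 ± 0.40 (SE) and an adjusted p of 0.200 in edgeR. Control 1 was far above the other brains, and without it the log2 fold change was -0.61 with an unadjusted edgeR p of 0.141. Cd6 also did not reach an unadjusted p under 0.05 without heat stress 1. With the replicate number as a term the unadjusted edgeR p was 0.0575.

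The remaining members with at least 10 counts over the 6 brain libraries overlapped between the groups. Zap70 had 23, 28 and 48 counts in control against 25, 32 and 20 after heat stress, and Skap1 had 29, 7 and 22 in control against 21, 23 and 20 after heat stress. Cd7 had 23, 9 and 7 counts in control against 2, 9 and 8 after heat stress, with control 1 high and heat stress 1 low. Ltb had 4 to 12 counts, Lat 5 to 12 and Eomes, which also marks developing cortical neurons, 3 to 13. No granzyme, Prf1, Nkg7 or NK receptor gene had more than 4 counts in any brain library. Of the other T and NK cell genes, 9 were tested in brain, 0 were higher and 1 was lower at an unadjusted edgeR p under 0.05, where 10% of all genes were lower. That gene was Lef1, a transcription factor of T cell development that also acts in Wnt signalling, with 153, 62 and 243 counts in control against 60, 49 and 29 after heat stress.

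No member passed the adjusted test for a heat effect that differed between liver and brain. In the fit of all 12 libraries, 0 of 18 tested members had an adjusted p under 0.05 for the liver effect minus the brain effect, where 0.00632% of 15824 genes were called. DESeq2 called 0 members and 0.272% of all genes, but gave an adjusted p for only 1 of the 18 members. At an unadjusted p under 0.05, 3 members had a more positive effect in liver and 0 a more negative one, against 3.73% and 5.91% of all genes. Without liver heat stress 3, only Cd7 of 19 members had a more positive effect at that p, against 3.25% of all genes. With a minimum count of 20 only Cd6 of 7 did, against 3.66%. A more negative effect at that p was found for Themis without brain control 1, against 2.83% of all genes. It was also found for Cd4 without brain heat stress 2, against 2.71%. Cd6 did not reach that p without brain control 1, and Spn did not in several fits with 1 library left out. The differences on the log2 scale were 2.28 ± 0.78 (SE) for Cd7, 2.24 ± 0.82 for Cd6 and 2.04 ± 0.86 for Spn, all at an adjusted p of 0.516 in edgeR. For Cd4 the difference was -1.09 ± 0.70 (SE), with an adjusted p of 0.605.

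Without heat stress, most of the T and NK cell genes tested were higher in liver than in brain. Of the 18 members tested between the control tissues, 14 were called at an adjusted p under 0.05 by edgeR, a test in which 80.4% of 15824 genes were called. In 12 the level was higher in liver, against 36.1% of all genes, and in 2 it was lower in liver, against 44.2%. DESeq2 called 14 members as well and 81.2% of all genes, and with a minimum count of 20 only 7 could be tested and 5 were called, 3 higher and 2 lower in liver, against 81.0% of all genes called. A gene could pass the filter through liver alone, so the counts over the 18 are a description.

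The number of members called in each direction depended on the scaling. Scaling by library size alone, an alternative chosen after seeing the data, lowered the median log2 difference of all genes between liver and brain by 1.09, from -0.24 to -1.33. Of the 18 members, edgeR then called 8 higher and 4 lower in liver, against 19.8% and 65.0% of all genes. Cd3e, Ltb, Cd8a and Spn were no longer called, at log2 differences of 1.53, 1.04, 0.99 and 0.54 and adjusted p of 0.0521, 0.0503, 0.257 and 0.430. Size factors of DESeq2 in edgeR gave 12 higher and 2 lower, as TMM did, against 35.1% and 45.8% of all genes. With libraries of the same treatment and number taken as 1 mouse, 12 members and 79.9% of all genes were called, and Cd8a and Spn were not, at adjusted p of 0.0691 and 0.0600.

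With TMM scaling, the members called higher in control liver were Themis, Klrk1, Ms4a4b, Cd3d, Cd3g, Zap70, Nkg7, Cd2, Cd3e, Ltb, Cd8a and Spn. Zap70 had 319, 401 and 253 counts in control liver against 23, 28 and 48 in control brain, a log2 difference of 4.38 ± 0.31 (SE) with an adjusted p of 1.22e-08 in edgeR. Themis had 121 counts over the 3 control livers and 2 over the 3 control brains, and Klrk1 had 53 and 1. Cd3e had 15 and 5, with a log2 difference of 2.57 ± 0.67 (SE) and an adjusted p of 0.00296. Cd8a and Spn were called by a small margin, at adjusted p of 0.0262 and 0.0291 in edgeR. Cd8a was not called without liver control 2 or without brain control 2, at an adjusted p of 0.187 and 0.0658. Spn was not called without liver control 1, without liver control 3, without brain control 1 or without both liver libraries with muscle transcripts, at an adjusted p of 0.0864, 0.173, 0.0771 and 0.0985.

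Cd6 and Cd4 were lower in control liver than in control brain. Cd6 had 1, 5 and 3 counts in the livers and 62, 24 and 24 in the brains, a log2 difference of -2.41 ± 0.59 (SE) with an adjusted p of 0.00186 in edgeR. Cd4 had 14, 5 and 8 counts in the livers and 67, 63 and 39 in the brains, a log2 difference of -1.54 ± 0.50 (SE) with an adjusted p of 0.0120. The groups did not overlap for either gene, and for Cd4 the adjusted p was 0.0516 without liver control 2. With TMM scaling of all libraries, Lat, Lck, Cd7 and Skap1 were tested and not called. Scaled by library size alone, Cd7 and Skap1 were called lower in liver. Without both liver libraries with muscle transcripts, Lat was called higher and Eomes lower in liver. In that fit 15 of 19 members tested and 81.3% of all genes were called.

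On a scale of CPM per kilobase of exon, which allows genes to be compared, Zap70 led the control livers at 12.5 ± 2.45 (SD, n = 3). Ltb followed at 1.24 ± 0.505, Nkg7 at 1.01 ± 0.755, Cd3d at 0.772 ± 0.353 and Cd2 at 0.676 ± 0.418, and these 4 neighbours did not differ beyond their spread. In the control brains Cd4 was first at 0.748 ± 0.195 CPM per kilobase, before Zap70 at 0.604 ± 0.271 and Cd7 at 0.589 ± 0.321, again within their spread. Lck followed at 0.340 ± 0.0662 and Ltb at 0.283 ± 0.124. Cd3e was at 0.144 ± 0.0560 CPM per kilobase in control liver and 0.0226 ± 0.00968 in control brain, so that in brain Cd4, Zap70 and Cd7 were well above this defining T cell gene.

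**Figure D5:**
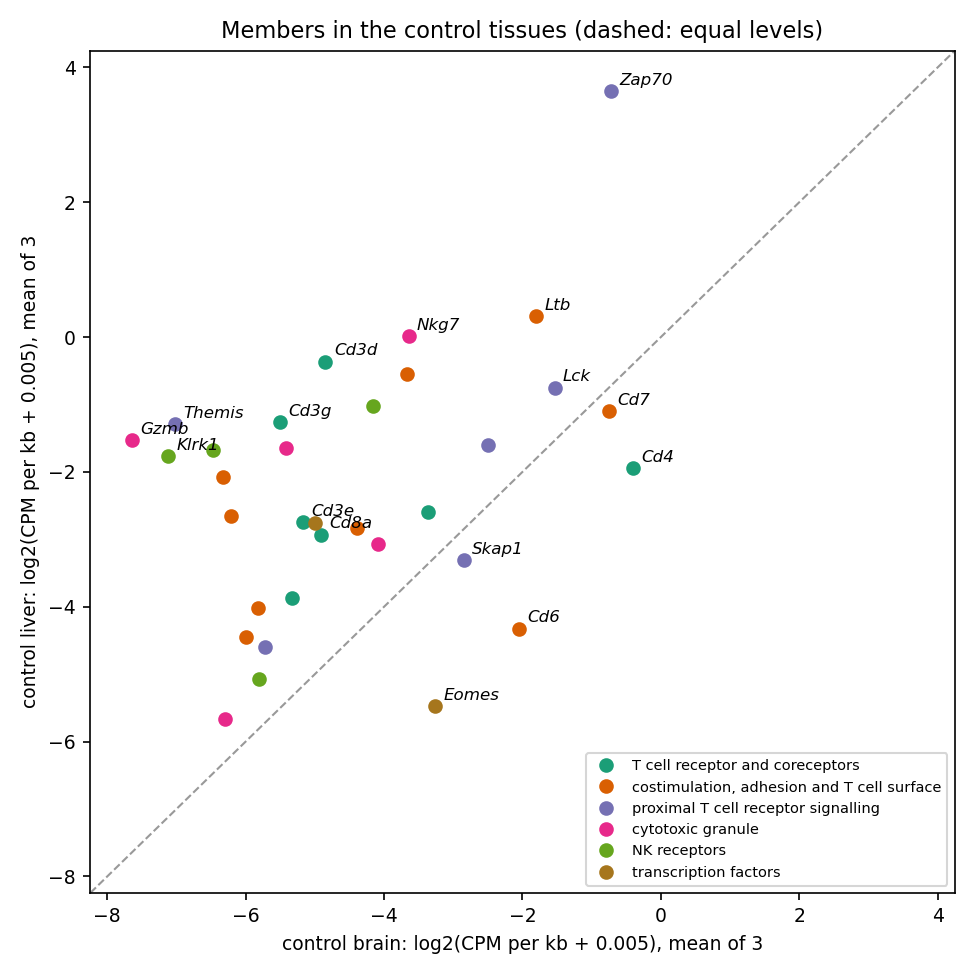
Mean level of each member in the control tissues as log2(CPM per kilobase of exon + 0.005), brain on the horizontal and liver on the vertical axis, coloured by role, 1 point per gene and a dashed line of equal levels. With TMM scaling most members lie above the line, Zap70 is highest in liver, and Cd4, Cd6, Cd7, Skap1 and Eomes lie below the line.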

How the data were processed

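RNA-seq counts of 33 T and NK cell genes were examined in 12 libraries of mouse brain and liver. Raw read counts per gene symbol were deposited by the authors as 1 table with a column for each library, and 0 columns of single libraries were left unused. The submitters' processing notes name FastQC 0.11.9, Trimmomatic 0.39, HISAT2 2.2.1, featureCounts from Subread 2.0.1 and DESeq2 1.22.2, with reads aligned to mm10. The methods also describe alignment with Tophat2, counting with HTSeq and testing with DESeq, so the counter is uncertain. The annotation release, the strand setting and the treatment of multimapping reads are not given in the sources used here. The library kit kept strand. The authors' tables of log2 fold changes and p-values from their own comparisons were not used.

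Tests ran in R 4.3.3 with edgeR 4.0.16 (quasi-likelihood test with robust estimates, TMM factors, filterByExpr at a count of 10 and a total of 15). P-values were adjusted by Benjamini-Hochberg over all genes tested, with a threshold of 0.05. Each tissue was fitted on its 6 libraries. The difference of effects and the control tissues were fitted on all 12 without a term for the mouse, which ignores any sharing of mice between the tissues. A standard error is that of the fitted log2 fold change. Groups were said not to overlap on normalized CPM, for genes with at least 10 counts over 6 libraries. With 3 libraries per group, an exact permutation test cannot go below 0.1, so none was used. Alternatives were DESeq2 1.42.0, its size factors, other filters, a replicate block, all libraries in 1 fit, libraries left out and, added later, scaling by library size, a term for the column suffix and a term for the mouse.

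Members given with values in every library were Cd4, Cd8a, Cd7, the CD3 chains, those with an unadjusted p under 0.05 and those whose groups did not overlap, and a few others were added for their role. The members and all marker lists were chosen with earlier results of these data known. The labels give each library a tissue, a treatment and a number, and 0 pairs of libraries had identical counts. Promoter sequences came from RefSeq (GRCm38.p6), and gene positions and exon lengths from GENCODE M21.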

Additional observations from a re-analysis of the deposited data

How the results depend on the processing

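Of 560 refits of 39 gene and comparison pairs, 530 kept their direction and side of the threshold, 8 kept their direction but had no adjusted p in DESeq2, 13 lost a call between the control tissues (Cd3e, Ltb, Spn, Cd8a and Cd4) and 1 gained one. The other 8 changed direction, with log2 fold changes near 0 and no call. Outside the control tissues no pair was called in the main fit, so keeping the side of the threshold says little there. Changes of the unadjusted p, as for Lat and Nkg7 in liver and Lck and Cd6 in brain, were not counted. With 1 library left out in turn, the log2 fold change lay between -0.43 and 0.24 for Zap70 in brain (above 0 without control 3). In liver it then lay between -0.31 and 0.33 for Ltb (below 0 without control 1 or heat stress 3), between -0.13 and 0.36 for Themis (below 0 without control 1 or heat stress 1) and between -0.047 and 0.57 for Klrk1 (below 0 without heat stress 1). Ltb was also at -0.28 without both libraries with muscle transcripts and at -0.010 with the column suffix as a term. The gain was Cd4 in brain, which made DESeq2's count of called members 1 there. The cause was not tested. Between the control tissues, the 39 pairs covered only members called with TMM scaling. Calls that Cd7, Skap1, Lat and Eomes gained there under other settings are therefore not among these refits. At an unadjusted p under 0.05, higher members in liver numbered 10 of 33 with no filter, against 2.12% of all genes, and 0 of 6 with a minimum count of 20, against 2.85%. With that minimum, 5 members were called between the control tissues, of 7 tested, against 81.0% of all genes. Leaving out each library in turn gave 1 to 2 higher members of 5 to 8 tested in brain at an unadjusted p under 0.05, against 4.85% to 13.6% of all genes, and 4 to 8 of 18 to 21 in liver, against 1.78% to 7.11%. For the difference of effects it gave 1 to 3 of 18 to 19, against 2.03% to 11.3%. Members without overlap in the higher direction then numbered 1 to 4 in brain, against 14.5% to 22.1% of all genes, and 11 to 17 in liver, against 8.27% to 15.2%. They numbered 17 of 29, against 20.3%, without both liver libraries with muscle transcripts. The non-overlap counts under other settings, scaling by library size, the suffix term and the mouse term were chosen after seeing the data.

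The labels do not say whether control and heat stress libraries of the same number share more than that number. Their deviations from the group means correlated at -0.30, 0.23 and -0.20 in brain and at -0.63, -0.55 and -0.09 in liver. In liver each number joins a column with the suffix in its name and a column without it. The part of the suffix in these correlations was not tested. With the replicate block, 0 members were called in brain, in liver and for the difference. Between the control tissues 14 were called, where 78.8% of all genes were called. The block left 6 liver members higher at an unadjusted p under 0.05, against 1.56% of all genes, and 0 brain members lower, against 9.42%. Brain and liver libraries of the same number correlated at 0.40, 0.41 and 0.13 in control and at 0.06, -0.22 and 0.01 in heat stress, over 10594 genes. With each such pair taken as 1 mouse, 0 members were called for the difference and 12 between the control tissues, where 79.9% of all genes were called. Most members rested on under 30 counts per library, so changes of low genes may have gone undetected at this depth.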
